A study of Mus musculus with 12 samples.

Results

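The organ of Corti of Clrn1-/- mice was compared directly with that of Clrn2-/- mice at P21. The comparison took the 6 libraries whose genotype was given as Clrn1-/- or Clrn2-/-, 3 of each, out of 12 libraries in all, and every gene that could be tested. Poly-A RNA of whole organs of Corti, dissected free of the stria vascularis and the modiolus, had been sequenced with strand-specific libraries. The other 6 libraries, 3 of wild-type and 3 of Clrn1-/-Clrn2-/- mice, served as references. In Clrn1-/- mice, exon 4 of Clrn1 had been flanked by loxP sites and deleted in the embryo, in every tissue, by PGK-cre. Clrn2-/- mice were homozygous for the clarinet allele, a tryptophan-to-stop change at codon 4 that is also present in every tissue. The double mutants came from crosses of both single mutants, and wild-type mice were bred separately rather than taken from the mutant litters. A difference between the single mutants could therefore follow the mutated gene or the breeding line, and the design cannot tell these apart.

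Clarin-1 and clarin-2 are small proteins that span the membrane several times. Clarin-1 is the product of the Usher syndrome gene CLRN1, and both clarins are needed for the hair bundle, the array of stereocilia on top of a hair cell that turns sound-driven deflection into current. Inner hair cells pass that signal through ribbon synapses to the primary auditory neurons, and outer hair cells amplify it. Around them stand supporting cells, nerve fibers with Schwann cell myelin, fibroblasts, macrophages, vessels and pieces of bone. In bulk RNA, fewer cells of a type and less RNA per cell cannot be told apart.

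The mutations are shown on the reference sequence (GRCm38), because the counts of the mutated genes depend on where they lie. The first sequence is the coding part of the deleted exon, chr3:58846189-58846451 on the minus strand, which is 263 bases long. The second is the first 60 coding bases of Clrn2, chr5:45453811-45453870 on the plus strand, and the capitals mark the tryptophan codon 4 that is a stop codon in the clarinet allele.
Clrn1 exon 4: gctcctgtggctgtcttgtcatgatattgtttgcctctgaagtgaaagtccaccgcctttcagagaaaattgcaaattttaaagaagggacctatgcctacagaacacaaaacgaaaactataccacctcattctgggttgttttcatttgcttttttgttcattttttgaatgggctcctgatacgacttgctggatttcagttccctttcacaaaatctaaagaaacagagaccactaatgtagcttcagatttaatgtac
Clrn2 coding start: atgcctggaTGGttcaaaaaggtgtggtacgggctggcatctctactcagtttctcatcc

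Clrn1 (chr3:58844028-58885340) was counted 96, 104 and 106 times in the 3 Clrn1-/- libraries and 1170, 844 and 1034 times in the 3 Clrn2-/- libraries. Scaled by the TMM-adjusted total of counts on genes (CPM, the unit of all levels here), these were 3.04, 2.69 and 2.75 in Clrn1-/- and 31.5, 25.8 and 29.1 in Clrn2-/-. Every Clrn1-/- library was below every Clrn2-/- library, as the genotype labels require. The log2 fold change of Clrn1-/- over Clrn2-/- was -3.35 (SE 0.12, edgeR adjusted p = 3.0e-11). Exon 4 holds 2424 of the 3083 bases of a transcript with 4 exons (Clrn1-202), or 78.6%, and reads on exons 1 to 3 are still counted for the gene.

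Clrn2 (chr5:45453751-45464149) was near the bottom of the range in both mutants. It was counted 27, 33 and 40 times in Clrn1-/- and 47, 45 and 37 times in Clrn2-/-, which is 0.854, 0.854 and 1.04 CPM against 1.26, 1.38 and 1.04 CPM. The libraries did not overlap, but the highest Clrn1-/- library (1.039 CPM) almost met the lowest Clrn2-/- library (1.04 CPM). The log2 fold change of -0.41 (SE 0.24) did not pass the test (edgeR adjusted p = 0.25). A nonsense change can leave the transcript to be counted, so the level of Clrn2 does not check the genotype of these libraries. The mean in wild-type was 2.72 ± 0.73 CPM (SD, n = 3), above both single mutants. Against wild-type, the log2 fold change of Clrn2 was -1.57 in Clrn1-/- (edgeR adjusted p = 7.4e-05) and -1.15 in Clrn2-/- (edgeR adjusted p = 0.0015). Clrn3, the remaining clarin gene, had a count of 0 in all 12 libraries, which allows a level of up to 3 counts per library.

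A gene was called where the adjusted p of edgeR's quasi-likelihood test was at most 0.05 and the difference at least 1.5-fold. A log2 fold change above 0 means a higher level in Clrn1-/- throughout. Of 19052 genes tested, 902 were called (4.73%), 457 higher (2.4%) and 445 lower (2.34%) in Clrn1-/-. By the adjusted p alone, 3523 genes passed (18.5%), 1811 higher (9.51%) and 1712 lower (8.99%). Counts given at the adjusted p alone include the called genes. Counts for the lists below are to be read beside these shares of all tested genes. The median log2 fold change over all tested genes was 0.00077. The 3 Clrn1-/- libraries did not overlap with the 3 Clrn2-/- libraries for 890 of the 902 called genes, against 34.6% of all tested genes. The mice of each genotype came from at least 2 litters, but the labels do not tie a library to an animal or a litter, so the p-values measure the spread between these libraries, which may be technical in part. Counts on genes ran from 31154801 to 38327913 in the 6 libraries, and the spread between replicates amounted to a coefficient of variation of 6.15% beyond counting error. All 6 libraries held both Xist and the 4 Y-linked genes examined, at 174 to 254 CPM for Xist and 43 to 58 CPM for Ddx3y. None of these was called. Each library thus held RNA of both sexes, that is of more than 1 mouse.

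Most called genes stood apart from wild-type on the Clrn1-/- side. Of the 902, 592 were also called between Clrn1-/- and wild-type alone (292 higher and 300 lower in Clrn1-/- than in Clrn2-/-), and 50 between Clrn2-/- and wild-type alone. In 34 both mutants differed from wild-type in the same direction, in 7 they differed in opposite directions, and in 219 neither was called against wild-type. Clrn1-/- was called against wild-type for 7.22% of all genes and Clrn2-/- for 2.66%. These tests share libraries with each other, so the split describes the 902 genes and is no separate evidence. The wild-type mean lay nearer to Clrn2-/- than to Clrn1-/- for 758 of the 902.

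Of the 7 genes on opposite sides of wild-type, Cxcl14, which encodes a chemokine, had 32.6, 32.6 and 28.4 CPM in Clrn1-/- and 10.2, 14.6 and 14.1 CPM in Clrn2-/-. No library overlapped, wild-type lay between at a mean of 19.6 ± 4.1 CPM (SD, n = 3), and the log2 fold change was 1.27 (SE 0.14, edgeR adjusted p = 9.1e-06). Kcnj14, an inward rectifier potassium channel gene, showed the reverse order. Its levels were 1.20, 1.11 and 1.25 CPM in Clrn1-/-, 6.75, 7.32 and 6.97 CPM in Clrn2-/- and 3.55 ± 0.48 CPM (SD, n = 3) in wild-type, with a log2 fold change of -2.56 (SE 0.14, edgeR adjusted p = 4.5e-09). The others were Gm13736, Gm4316 and Gm6166, higher in Clrn1-/-, and Amtn and A830018L16Rik, lower in Clrn1-/-.

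The double mutants carry both mutations and took no part in choosing the 902 genes, apart from sharing the estimate of the spread. Their mean log2 level lay nearer to Clrn2-/- for 586 of the called genes and nearer to Clrn1-/- for 316 (35.03%). On a scale that sets the Clrn2-/- mean at 0 and the Clrn1-/- mean at 1, the median of the double mutants was 0.313, with quartiles of 0.0412 and 0.615. They lay between the single mutants for 632 genes, below 0 for 193 and above 1 for 72, and the remaining 5 were at exactly 0.

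**Figure D1:**
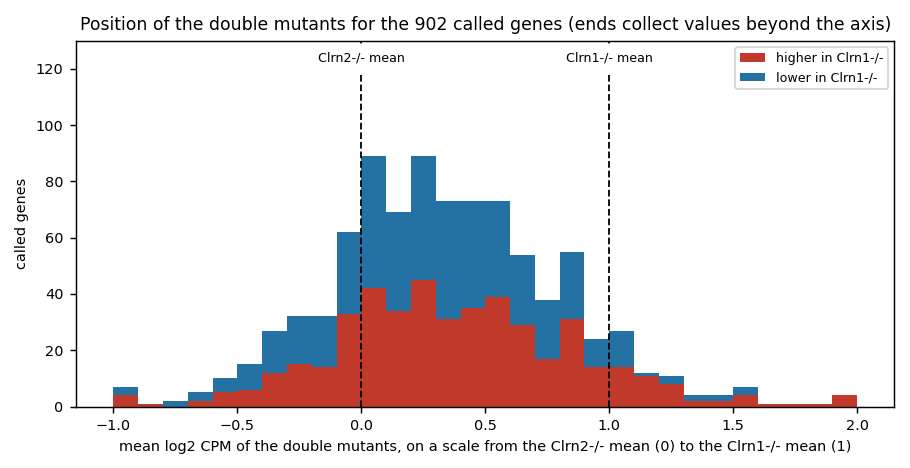
Number of called genes (y axis) by the position of the double mutants' mean log2 CPM on a scale from the Clrn2-/- mean at 0 to the Clrn1-/- mean at 1 (x axis), with genes higher in Clrn1-/- in red and lower in blue, stacked. Most of the 902 genes lie from 0 to 1, with the median at 0.313, on the Clrn2-/- side of the middle.

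Pseudogenes and members of repeated gene families were found beside single-copy genes among the large differences. Of the 94 called genes at least 4-fold higher in Clrn1-/-, 35 were protein coding and 30 were pseudogenes. Of the 85 at least 4-fold lower, 42 were protein coding and 11 were pseudogenes. Wild-type lay nearer to Clrn2-/- for 89 of these 94 and for 76 of these 85. Over all tested genes, 8.67% of pseudogenes and 8.73% of noncoding genes were called, against 3.79% of protein coding genes.

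The predicted gene Gm13394 had 81.2, 77.7 and 74.0 CPM in Clrn1-/- and at most 0.122 CPM in Clrn2-/-, a log2 fold change of 9.77 (SE 0.16, edgeR adjusted p = 1.1e-15). Its mean in the double mutants was 0.0492 CPM. Rps3a3, a copy of the ribosomal protein gene Rps3a1, had 80.1, 76.6 and 83.8 CPM against 1.02, 1.01 and 0.646 CPM, with 17.3 ± 2.9 CPM (SD, n = 3) in the double mutants. The log2 fold change was 6.48 (SE 0.14, edgeR adjusted p = 5.2e-14). Zfp990, a zinc finger gene on chromosome 4, had 4.52, 4.24 and 3.77 CPM in Clrn1-/- and a count of 0 in all Clrn2-/- libraries, which makes it at least 48.8-fold higher against a floor of 3 counts per library. Gm12666, Gm18562 and St6galnac1 were likewise at 0 in Clrn2-/-, and were at least 17.4-fold, 14-fold and 13-fold higher in Clrn1-/-. Gm8210 had 3 counts in all of Clrn2-/-, a ratio of 215 with a counting interval of 73.1 to 1040. For Gm4864 the ratio was 174 (30.7 to 6890) and for Gm15801 it was 59.6 (16.2 to 498), with 1 and 2 counts in Clrn2-/-. BC018473 and Mylf-ps had log2 fold changes of 5.70 and 5.66, and Ifi202b, described with its family, completed the 12. Pseudogenes, ribosomal copies and zinc finger genes can exchange reads with near-identical copies, so their levels are uncertain.

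Single-copy genes with differences of this size included Plbd1, a phospholipase B-like gene expressed in myeloid cells, which was chosen here after its values were seen. Plbd1 had 78.6, 95.5 and 109 CPM in Clrn1-/- and 3.01, 3.12 and 2.95 CPM in Clrn2-/-. Wild-type had 2.23 ± 0.23 CPM and the double mutants 3.78 ± 0.52 CPM (SD, n = 3 each), so that only the Clrn1-/- libraries among the 12 were high. The log2 fold change was 4.96 (SE 0.12, edgeR adjusted p = 2.8e-13).

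In the other direction, Ccl27a, which encodes a chemokine of epithelia, had 1.26, 0.828 and 0.935 CPM in Clrn1-/- and 18.9, 17.5 and 19.7 CPM in Clrn2-/-. Wild-type, at 19.1 ± 0.4 CPM, matched the upper group, and the double mutants had 11.9 ± 0.9 CPM (SD, n = 3 each). The log2 fold change was -4.23 (SE 0.12, edgeR adjusted p = 1.1e-12). Rpl29, a ribosomal protein gene, had 7.88, 7.22 and 7.77 CPM against 118.6, 116.3 and 120.4 CPM (log2 fold change -3.96, SE 0.13, edgeR adjusted p = 6.9e-12). Rpl29 reads can also belong to processed copies elsewhere in the genome. Lefty1, a secreted antagonist of Nodal, was lower by a log2 fold change of -4.38 (SE 0.44, edgeR adjusted p = 5.4e-06), with 0.0949, 0.0517 and 0 CPM against 0.834, 1.22 and 1.04 CPM. The remaining members of the 12 were Mndal, Ifi213, Fgf21 and Clrn1, described with their groups, and the noncoding or predicted genes Gm12411, 5830444B04Rik, Gm10654, Gm49769 and 4930481A15Rik, with log2 fold changes from -3.70 to -3.11.

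**Figure D2:**
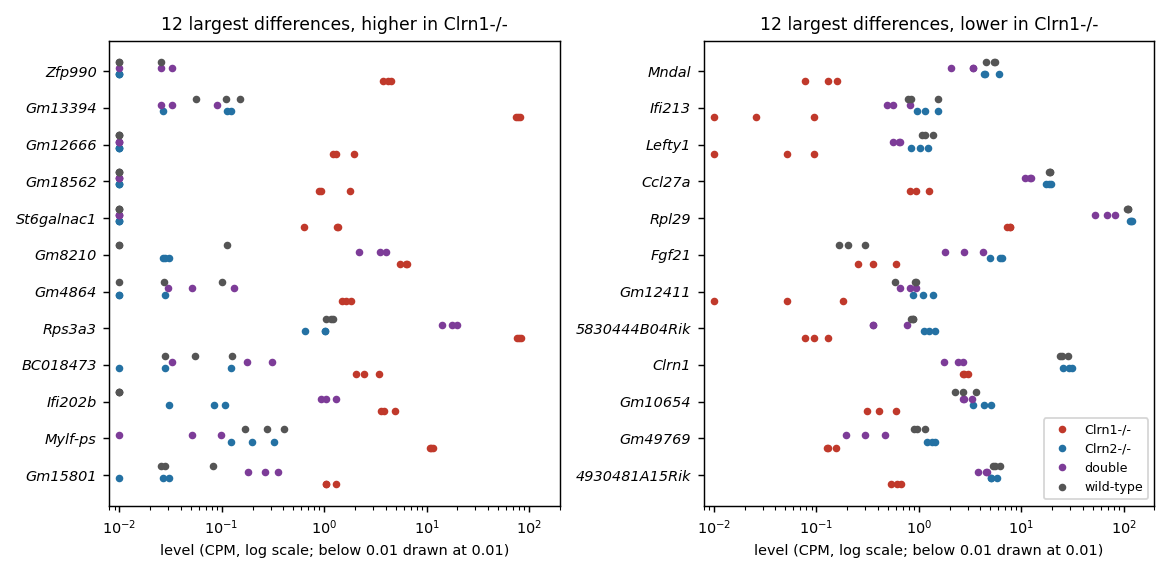
Levels of the 12 genes with the largest differences in each direction (y axis) in CPM on a log scale (x axis), one point per library and one color per genotype. The Clrn1-/- points stand apart from Clrn2-/- for all 24 genes, and the wild-type points lie with Clrn2-/- for most of them, Fgf21 excepted.

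The hair bundle lists were small, and their counts of none or 1 call do not stand apart from the 4.73% of all tested genes. Of 15 genes of the mechanotransduction channel and the tip link, the filament that pulls the channel open, 1 was called, and of 30 stereocilia actin genes none was called, with log2 fold changes from -0.53 to 0.42 (at the adjusted p alone, 1 was higher and 4 lower). The called gene was Tmc2, the channel subunit of immature hair cells, at 0.316, 0.440 and 0.338 CPM in Clrn1-/- and 0.0807, 0.122 and 0.0843 CPM in Clrn2-/-. These levels are close to the detection limit. The libraries did not overlap, and the log2 fold change was 1.91 (SE 0.47, edgeR adjusted p = 0.010). The call was lost without Clrn1-/- replicate 2 (1.75, edgeR adjusted p = 0.052) and with DESeq2 (adjusted p = 0.051). Tmc1, the subunit of mature hair cells, had a log2 difference of -0.18 (edgeR adjusted p = 0.29). Cdh23, which forms the upper part of the tip link, had one of -0.36 and passed the adjusted p alone (edgeR adjusted p = 0.0039). Among 11 Usher syndrome and clarin genes, only Clrn1 was called. Tectorial membrane genes (14 tested), supporting cell genes (19) and hair cell transcription factors (11) held no call, while at the adjusted p alone 5, 2 and 2 of them passed. Pou4f3, the transcription factor that hair cells need to survive, was among these, with a log2 difference of -0.39 (edgeR adjusted p = 0.0067).

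Of 16 ribbon synapse genes 1 was called (6.25%), a share near the 4.73% of all tested genes, and 5 were higher and 3 lower at the adjusted p alone. The called gene, Slc17a8, encodes VGLUT3, the transporter that fills the vesicles of inner hair cells with glutamate. It had 15.3, 14.96 and 17.01 CPM in Clrn1-/- and 34.96, 29.9 and 38.2 CPM in Clrn2-/-, so each Clrn2-/- library was above all Clrn1-/- libraries. Wild-type had 29.3 ± 3.0 CPM and the double mutants had 31.8 ± 2.0 CPM (SD, n = 3 each), both on the side of Clrn2-/-. The log2 fold change was -1.12 (SE 0.09, edgeR adjusted p = 5.6e-07). Among the members that were not called, Otof, which encodes the calcium sensor of vesicle fusion in inner hair cells, had a log2 fold change of -0.34 and Cabp2, a calcium-binding modulator of the channel, one of -0.41. The channel itself, Cacna1d, had a log2 fold change of 0.30, as did Pclo, which encodes a protein of the active zone. The ribbon synapse list thus had members in both directions, with a median of 0.10.

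Of 10 outer hair cell genes 1 was called, against 4.73% of all tested genes, from which a single call does not stand apart. Chrna10, a subunit of the receptor for efferent acetylcholine, had 8.19, 8.77 and 11.5 CPM in Clrn1-/- and 14.2, 12.03 and 17.1 CPM in Clrn2-/-. The libraries did not overlap, and the log2 fold change was -0.60 (SE 0.13, edgeR adjusted p = 0.0036). The difference fell under 1.5-fold without Clrn1-/- replicate 1 (-0.51), Clrn1-/- replicate 2 (-0.54) or Clrn2-/- replicate 3 (-0.46). Slc26a5, which encodes the motor protein prestin, had a log2 fold change of -0.41 and passed the adjusted p alone (edgeR adjusted p = 0.020). Atp2b2, the calcium pump of the bundle, had one of 0.26 (edgeR adjusted p = 0.0011). The 6 hair cell markers were Pou4f3, Myo7a, Otof, Slc26a5, Slc17a8 and Ocm. Summed over them, the libraries had 257 to 307 CPM in Clrn1-/-, 299 to 394 CPM in Clrn2-/- and 253 to 305 CPM in wild-type. None of the 6 was at 0 in any group. Slc17a8 and Otof are themselves in this sum, so it is no separate gauge of hair cell content for them. The part of hair cell content in the value of Chrna10 was not tested.

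**Figure D3:**
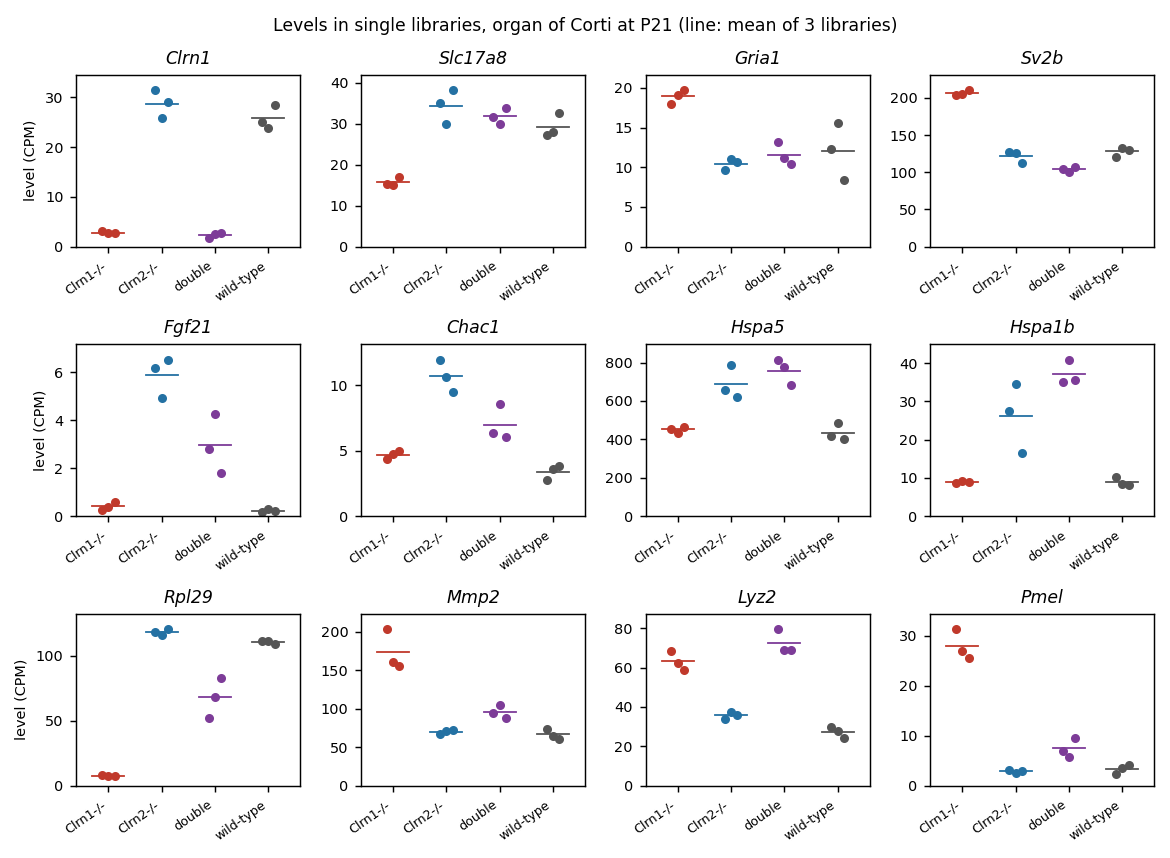
Levels in CPM (y axis, from 0) of 12 genes in each library of the 4 genotypes (x axis), with points for single libraries and a line at the mean of 3. Clrn1 is low in both genotypes that lack it, Slc17a8, Rpl29, Mmp2, Gria1 and Sv2b differ from the rest in Clrn1-/- above all, and Hspa5, Hspa1b, Chac1 and Fgf21 are higher in Clrn2-/- and in the double mutants than in Clrn1-/- and wild-type.

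Among genes of synapses and axons, which in these bulk libraries include synapses of hair cells, more genes were higher in Clrn1-/- than lower at the adjusted p alone, although few reached 1.5-fold. Of 51 glutamate receptor genes and partners, 14 were higher and 3 lower at the adjusted p alone, and 2 were called in each direction. Of 51 synaptic vesicle genes, 10 were higher and 3 lower, again with 2 called in each direction, Slc17a8 being one of the lower. Of 72 axon guidance genes, 18 were higher and 3 lower, with 1 call. Medians of these lists were 0.13, 0.06 and 0.09.

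Gria1, an AMPA receptor subunit, had 18.03, 19.1 and 19.7 CPM in Clrn1-/- and 9.71, 10.99 and 10.7 CPM in Clrn2-/- (log2 fold change 0.86, SE 0.15, edgeR adjusted p = 0.0011). No library overlapped, and the double mutants, at 11.6 ± 1.5 CPM (SD, n = 3), were with Clrn2-/-. Sv2b, which encodes a glycoprotein of synaptic vesicles, was the most abundant of these genes, with 204, 205.9 and 210.4 CPM against 127.7, 126.4 and 112.9 CPM. Its log2 fold change was 0.76 (SE 0.05, edgeR adjusted p = 5.3e-08). Cplx2, a regulator of vesicle fusion, had 28.1, 30.8 and 33.7 CPM against 15.5, 17.2 and 19.2 CPM (0.84, SE 0.08, edgeR adjusted p = 2.5e-06). Nlgn1, a postsynaptic adhesion gene, had 10.9, 10.7 and 10.2 CPM against 5.19, 5.999 and 6.24 CPM (0.86, SE 0.09, edgeR adjusted p = 5.4e-06). In the double mutants Sv2b and Cplx2 lay with Clrn2-/-, at 104 ± 3 and 20.7 ± 0.7 CPM, whereas Nlgn1, at 9.88 ± 0.52 CPM, lay with Clrn1-/- (SD, n = 3 each). Grm2, Nptx2 and Rab3b were also called. Of these, Grm2 had a log2 fold change of -2.18 at under 1 CPM. The calls of the others depended on single libraries. Nptx2 was lost without Clrn1-/- replicate 1 (-0.50) or 2 (-0.49) and without Clrn2-/- replicate 1 (-0.53) or 3 (-0.65). Rab3b was lost without any of the 6, with values from -0.84 to -0.66.

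Of 23 general neuron genes 1 was called, and 5 were higher and 4 lower at the adjusted p alone. Of 12 markers of spiral ganglion neuron subtypes 2 were called, both lower, and 4 were higher and 4 lower at the adjusted p alone. The sum of the general neuron genes ran from 13871 to 14501 CPM in Clrn1-/- and from 13191 to 15123 CPM in Clrn2-/-. Prph, the called gene of the first list and also a member of the second, encodes peripherin, an intermediate filament of type II auditory neurons, the neurons that contact outer hair cells. It had 3.38, 3.88 and 4.75 CPM in Clrn1-/- and 8.79, 8.97 and 8.85 CPM in Clrn2-/- (log2 fold change -1.14, SE 0.18, edgeR adjusted p = 3.9e-04). Here wild-type, at 4.71 ± 1.58 CPM, lay with Clrn1-/-, and the double mutants, at 9.54 ± 0.42 CPM (SD, n = 3 each), with Clrn2-/-. Gfra1, a receptor for GDNF, had 34.2, 42.4 and 41.1 CPM against 75.3, 72.7 and 74.8 CPM (-0.92, SE 0.08, edgeR adjusted p = 6.5e-07), with wild-type at 72.5 ± 4.4 CPM (SD, n = 3). Sema3d, a repulsive guidance ligand, had a log2 fold change of -0.78 (SE 0.08, edgeR adjusted p = 7.6e-06). Rxrg, a nuclear receptor, had one of -0.62 (SE 0.12, edgeR adjusted p = 0.0022), which fell under 1.5-fold without Clrn1-/- replicate 3 (-0.54) or Clrn2-/- replicate 1 (-0.56). None of 16 Schwann cell myelin genes was called, with 6 higher at the adjusted p alone.

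Genes of ion flow differed in single members. Of 79 potassium channel genes, 4 were called higher and 2 lower, and 17 and 6 passed the adjusted p alone (median 0.16). The share called was 7.59%, against 4.73% of all tested genes. At the adjusted p alone, 9.51% of all tested genes were higher and 8.99% lower. Kcnab1, a beta subunit of voltage-gated channels, had 29.96, 34.9 and 34.1 CPM in Clrn1-/- and 15.7, 16.1 and 17.9 CPM in Clrn2-/- (0.99, SE 0.07, edgeR adjusted p = 1.1e-07). Kcnab1 lies 6.38 Mb from Clrn1 on chromosome 3. Kcne2, Kcnj15 and Kcnj3 were called higher, with log2 fold changes of 1.08, 0.69 and 0.61. Kcne2 was lost without Clrn1-/- replicate 1 (0.88, edgeR adjusted p = 0.053), and Kcnj15 fell under 1.5-fold without Clrn2-/- replicate 1 (0.57). Kcnj2 (-0.64) joined Kcnj14 on the lower side, and its call was lost on leaving out any library except Clrn2-/- replicate 1, with values from -0.69 to -0.52. Kcnma1, the BK channel of inner hair cells, had 81.8, 82.1 and 81.7 CPM against 80.5, 73.7 and 68.5 CPM and did not pass (0.14, SE 0.06, edgeR adjusted p = 0.11). Lrrc52, which encodes a gamma subunit of the BK channel and is not in the list, was called lower in Clrn1-/-.

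Of the regulators of the sodium pump, Fxyd2 had 6.61, 7.71 and 7.92 CPM in Clrn1-/- and 20.5, 16.8 and 18.8 CPM in Clrn2-/-. The log2 fold change was -1.33 (SE 0.11, edgeR adjusted p = 8.1e-07), and the double mutants were at 22.8 ± 0.8 CPM (SD, n = 3), with Clrn2-/-. Fxyd5 was lower as well (-0.83), but was lost without Clrn2-/- replicate 2 (-0.68, edgeR adjusted p = 0.059). Atp1a4, a pump subunit best known from sperm, had 1.36, 1.73 and 1.82 CPM against 0.0269, 0.0612 and 0.112 CPM (4.56, SE 0.44, edgeR adjusted p = 3.0e-06). Slc12a5, the neuronal potassium-chloride cotransporter, was higher by a log2 fold change of 0.85, a call lost without Clrn1-/- replicate 2 (0.63, edgeR adjusted p = 0.069). Among 50 calcium channel, pump and exchanger genes, 16 were higher and 2 lower at the adjusted p alone and 1, Atp2a1, was called. Its value of 0.75 was lost without Clrn1-/- replicate 1 (0.82) or 2 (0.57) and without Clrn2-/- replicate 1 (0.65) or 3 (0.67). Stria vascularis genes, which include ion transporters, had no call among 15 tested, with 1 higher and 1 lower at the adjusted p alone. Their sum was 5734 to 6459 CPM in Clrn1-/-, 6925 to 7944 CPM in Clrn2-/- and 8181 to 10308 CPM in wild-type, with no overlap, although the stria had been removed. The part of remaining stria in the differences of ion transport genes was not tested.

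Stress response genes were called in 1 direction, lower in Clrn1-/- than in Clrn2-/-, against 2.34% of all tested genes in that direction. Cells meet unfolded protein in the endoplasmic reticulum (ER) by raising ER chaperones, and they meet amino acid or ER stress through phosphorylation of eIF2-alpha and the transcription factor ATF4, the integrated stress response. Heat shock genes respond to unfolded protein in the cytosol. All 20 ER chaperone genes tested had a negative log2 fold change, 17 passed the adjusted p and 3 were called, all lower in Clrn1-/- (median -0.30). The list of the integrated stress response also takes in ATF4 target genes. Of its 39 genes, 5 were called lower and 17 were lower at the adjusted p alone, against 1 higher (median -0.19). Of 15 heat shock genes, 4 were called lower and 10 were lower at the adjusted p alone (median -0.28).

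Hspa5 encodes BiP, the main ER chaperone. Its levels were 455, 436 and 464 CPM in Clrn1-/- and 656, 789 and 622 CPM in Clrn2-/-, with no overlap (log2 fold change -0.61, SE 0.09, edgeR adjusted p = 1.8e-04). Sdf2l1, another ER-resident gene, had 20.6, 18.1 and 19.9 CPM against 35.3, 41.5 and 31.1 CPM (-0.88, SE 0.11, edgeR adjusted p = 6.5e-05). Manf, which encodes a secreted ER stress protein, had 60.3, 54.5 and 56.8 CPM against 88.8, 104 and 73.1 CPM (-0.63, SE 0.12, edgeR adjusted p = 0.0018). Clrn2-/- replicate 2 was the highest of the 6 libraries for all 3 genes. Without it Hspa5 and Manf both had a log2 fold change of -0.50, under 1.5-fold, and still passed the adjusted p (edgeR adjusted p = 9.9e-04 and 0.012). Wild-type lay nearer to Clrn1-/- for these 3, at 433 ± 44 CPM for Hspa5, and the double mutants nearer to Clrn2-/-, at 759 ± 67 CPM (SD, n = 3 each). Against wild-type, the median of the 20 chaperones was 0.02 in Clrn1-/- and 0.27 in Clrn2-/-.

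Fgf21, a stress-induced hormone gene of the FGF family, had the largest difference of the integrated stress response. It had 0.253, 0.362 and 0.597 CPM in Clrn1-/- and 6.16, 4.93 and 6.52 CPM in Clrn2-/- (log2 fold change -3.82, SE 0.31, edgeR adjusted p = 5.6e-07). Wild-type was at 0.224 ± 0.069 CPM and the double mutants at 2.95 ± 1.23 CPM (SD, n = 3 each), so the gene was high only where Clrn2 was mutated. Chac1, which degrades glutathione, had 4.397, 4.74 and 5.01 CPM against 11.97, 10.7 and 9.47 CPM (-1.18, SE 0.14, edgeR adjusted p = 3.5e-05). Atf3, a stress-induced transcription factor, had 11.3, 10.1 and 9.45 CPM against 18.6, 22.8 and 19.1 CPM (-0.97, SE 0.10, edgeR adjusted p = 7.0e-06). The double mutants were above both single mutants for Atf3, at 29.3 ± 1.0 CPM (SD, n = 3). Trib3, a pseudokinase that dampens the response, had a log2 fold change of -0.78 and Ddit3, which encodes the factor CHOP, one of -0.65 (edgeR adjusted p = 0.0025 and 2.4e-06). Wild-type was nearer to Clrn1-/- for all 5, and the double mutants were nearer to Clrn2-/- for 4 of the 5. Atf4 itself (-0.29) and Asns, asparagine synthetase (-0.46), passed the adjusted p alone.

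Among heat shock genes, Hspa1b had 8.79, 9.21 and 9.01 CPM in Clrn1-/- and 27.6, 34.6 and 16.5 CPM in Clrn2-/- (-1.54, SE 0.19, edgeR adjusted p = 3.6e-05). Hspa1a, its neighbor with nearly the same coding sequence, had 7.81, 8.36 and 7.82 CPM against 21.6, 25.5 and 14.4 CPM (-1.35, SE 0.16, edgeR adjusted p = 3.2e-05). How reads were divided between these copies is uncertain, but both gave the same direction. The Clrn1-/- libraries were tight and the Clrn2-/- libraries spread, with replicate 3 lowest. Hspb1, a small heat shock protein gene, had 20.4, 22.3 and 21.7 CPM against 36.2, 39.6 and 30.8 CPM (-0.73, SE 0.11, edgeR adjusted p = 2.1e-04). Hspe1, which encodes the mitochondrial co-chaperonin, had a log2 fold change of -0.64 (SE 0.05, edgeR adjusted p = 3.4e-07). The double mutants were nearer to Clrn2-/- for these 4 genes, and at 37.3 ± 3.2 CPM (SD, n = 3) Hspa1b was higher there than in either single mutant's mean.

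The promoters of the stress response lists were searched on both strands, from 250 bases before to 50 bases after the start in RefSeq (GRCm38.p6). TGATGCAA, or TTGCATCA on the other strand, a letter sequence of the ATF4 element, was found in 7 of the 31 integrated stress response genes with a promoter in the table (22.6%), against 0.895% of all 32851 promoters. That list takes in genes chosen as ATF4 targets, so this share was partly fixed by the choice of the list. Of the 5 called members it was in Fgf21, Chac1 and Atf3. These are printed 5′ to 3′ in the direction of the gene with the match in capitals, 132 to 139 bases before the start for Fgf21 (chr7:45615602-45615649, minus strand), 186 to 193 for Chac1 (chr2:119351029-119351076, plus strand) and 103 to 110 for Atf3 (chr1:191183416-191183463, minus strand). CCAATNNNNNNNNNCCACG, the ER stress element, was found in 9 of 18 ER chaperone genes (50.0%) against 0.119% of all promoters. Hspa5 is shown as the called member that holds it, 47 to 65 bases before the start (chr2:34772005-34772063, plus strand). GAANNTTCNNGAA, a heat shock element, was found in 3 of 11 heat shock genes (27.3%) against 0.603%, and Hspe1 was the called member among them. All of these lists were drawn up by known function, so the shares are no separate evidence. They count genes within a list but single promoters in the whole set. A match describes these letters and is not a measured site.
Fgf21: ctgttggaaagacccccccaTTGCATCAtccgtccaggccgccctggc
Chac1: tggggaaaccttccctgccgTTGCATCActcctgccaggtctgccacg
Atf3: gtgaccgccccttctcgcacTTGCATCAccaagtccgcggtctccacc
Hspa5: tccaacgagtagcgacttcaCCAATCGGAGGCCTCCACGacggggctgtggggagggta

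**Figure D4:**
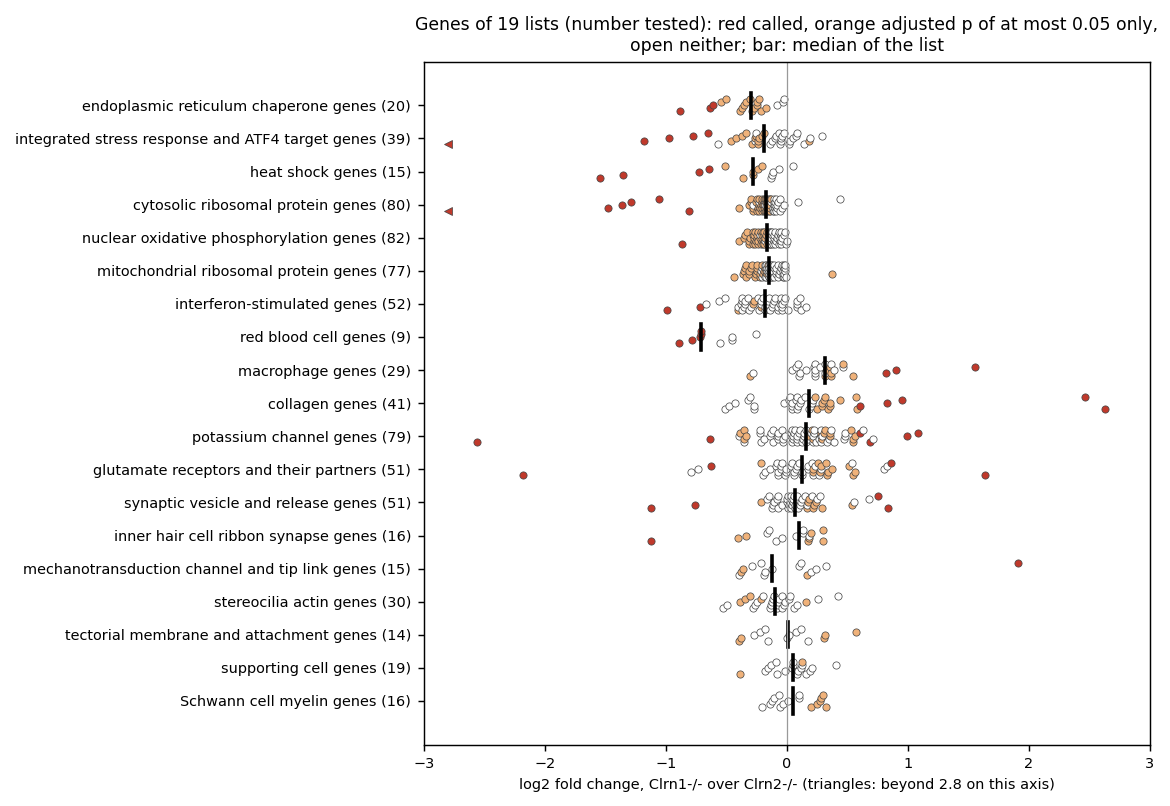
Log2 fold changes of Clrn1-/- over Clrn2-/- (x axis) for the genes of 19 lists (y axis, number tested in brackets), with called genes in red, genes at an adjusted p of at most 0.05 only in orange, and the list median as a black bar. The points of the ER chaperone, heat shock and oxidative phosphorylation lists lie almost wholly below 0 and those of the macrophage list mostly above it, while stereocilia and supporting cell genes lie close to 0.

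Genes of the ribosome and of the respiratory chain had small negative log2 fold changes in nearly every member, of which part passed the test. All 82 nuclear oxidative phosphorylation genes had a negative log2 fold change, with a median of -0.16, and 42 passed the adjusted p. The called member was Ndufs5, a subunit of complex I, at 31.1, 23.9 and 20.5 CPM against 46.8, 47.4 and 43.2 CPM (-0.87, SE 0.10, edgeR adjusted p = 2.2e-05). Its copy Ndufs5-ps was called in the opposite direction, at 18.7, 26.5 and 30.8 CPM against 10.7, 10.3 and 8.85 CPM (1.35, SE 0.14, edgeR adjusted p = 5.4e-06), and how reads were divided between these copies is uncertain. Of 77 mitochondrial ribosomal protein genes, 76 were negative and 25 lower at the adjusted p alone, with no call. Of 80 cytosolic ribosomal protein genes, 78 were negative, 52 were lower at the adjusted p alone and 6 were called (median -0.17). Besides Rpl29, Rpl35a had 19.01, 22.9 and 25.8 CPM against 61.2, 67.5 and 61.01 CPM (-1.48, SE 0.08, edgeR adjusted p = 4.5e-09). Rpl21 had 56.5, 59.5 and 72.1 CPM against 160.8, 163.4 and 160.5 CPM (-1.36, SE 0.07, edgeR adjusted p = 1.4e-09). Rps4l, Rpl34 and Rps26 followed at -1.29, -1.05 and -0.80. All 6 have processed copies or close relatives, so their counts are uncertain, and wild-type and the double mutants lay nearer to Clrn2-/- for each.

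The small shifts of these lists ran along with gene length. Over all tested genes with a known exonic length, the median log2 fold change was -0.08 in the shortest quartile (55 to 2177 bases), -0.04 and 0.01 in the middle quartiles, and 0.06 in the longest (6135 to 123179 bases). The median exonic length was 1578 bases for oxidative phosphorylation genes and 1776 for cytosolic ribosomal protein genes, against 3785 over all genes. The synaptic, potassium channel, calcium channel and collagen lists had medians above 0 and held long genes. Median lengths were 6639 bases for glutamate receptors and 7621 for collagens. Other lists of long genes had medians below 0, such as Usher syndrome and clarin genes (7337 bases, -0.12) and stereocilia actin genes (5008 bases, -0.09). The list of sodium channels, sodium pumps and chloride cotransporters (4850 bases) had a median of -0.01. The part of length in these small shifts was not tested.

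Immune genes went both ways. Of 29 macrophage genes, 27 had a positive log2 fold change and 3 were called higher (median 0.32), with 10 higher and 1 lower at the adjusted p alone. Lyz2, the lysozyme of macrophages, had 68.5, 62.1 and 58.98 CPM in Clrn1-/- and 34.1, 37.5 and 35.9 CPM in Clrn2-/- (0.82, SE 0.08, edgeR adjusted p = 3.0e-06). Cd14, a receptor for bacterial lipopolysaccharide, had 8.10, 7.63 and 7.12 CPM against 3.87, 4.22 and 4.13 CPM (0.90, SE 0.11, edgeR adjusted p = 3.2e-05). Folr2 was called at under 1.1 CPM (1.55). Summed, the list gave 572 to 616 CPM in Clrn1-/-, 439 to 526 in Clrn2-/-, 388 to 478 in wild-type and 602 to 681 in the double mutants, and the double mutants were nearer to Clrn1-/- for all 3 called genes.

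Interferon-stimulated genes were mostly negative, 45 of 52, with a median of -0.18, of which 6 were lower at the adjusted p alone and 2 were called. Gbp6, a guanylate-binding protein gene, had a log2 fold change of -0.99 (SE 0.21, edgeR adjusted p = 0.0041). Ifi27l2a had one of -0.72, which fell under 1.5-fold without Clrn2-/- replicate 2 (-0.57). The Ifi200 family, cytosolic DNA sensors in one cluster on chromosome 1, had 7 of 11 tested genes called. Mndal had 0.158, 0.129 and 0.0779 CPM in Clrn1-/- and 4.30, 6.09 and 4.41 CPM in Clrn2-/- (-5.32, SE 0.31, edgeR adjusted p = 1.2e-08). Ifi213, Ifi206, Ifi209, Ifi203 and Ifi204 were lower too, from -4.92 to -1.06. Ifi202b, in the same cluster, was higher, with 4.97, 3.83 and 3.58 CPM against 0.108, 0.0306 and 0.0843 CPM (5.70, SE 0.32, edgeR adjusted p = 3.9e-08). Wild-type lay nearer to Clrn2-/- for all 7. These genes are close copies of each other, so reads may have been assigned to a wrong member.

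Among 21 acute-phase and complement genes, 6 were called lower. Cfi, complement factor I, had 0.538, 0.492 and 0.909 CPM in Clrn1-/- and 3.42, 2.999 and 3.204 CPM in Clrn2-/- (-2.30, SE 0.19, edgeR adjusted p = 7.2e-07). C1ra, C1s1 and C2 of the classical pathway had log2 fold changes of -1.01, -0.76 and -0.73. Saa1 and Saa2, near-identical serum amyloid genes, had log2 fold changes of -2.62 and -3.54, and Clrn2-/- replicate 1 stood below replicates 2 and 3 for both, at 0.377 against 1.47 and 1.63 CPM for Saa1.

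Genes of red blood cells were lower in Clrn1-/-, 5 of 9 called. Alas2, the heme synthesis enzyme of red cell precursors, had 12.3, 9.94 and 11.97 CPM against 17.4, 23.6 and 22.3 CPM (-0.89, SE 0.17, edgeR adjusted p = 0.0023). Hbb-bs, a beta globin gene, had 186, 163 and 228 CPM against 255, 388 and 352 CPM (-0.79, SE 0.18, edgeR adjusted p = 0.0064). The other called genes were Hba-a2, Hbb-bt and Hba-a1 (-0.72 to -0.70), which are near copies. Hba-a2 was lost without Clrn1-/- replicate 1 (-0.80) or 2 (-0.56) or Clrn2-/- replicate 2 (-0.46) or 3 (-0.77). The sum over the 9 genes was 288 to 391 CPM in Clrn1-/-, 440 to 660 CPM in Clrn2-/- and 712 to 1163 CPM in wild-type. The part of blood in the differences of other genes was not tested.

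Collagen genes were higher in Clrn1-/- where they were called. Of 41 collagen genes, 5 were called higher and none lower, and 17 were higher and none lower at the adjusted p alone (median 0.18). Col6a3, a chain of microfibrillar collagen VI, had 17.1, 19.4 and 16.4 CPM in Clrn1-/- and 8.77, 9.58 and 8.94 CPM in Clrn2-/- (0.96, SE 0.12, edgeR adjusted p = 4.5e-05). Col6a6 had 2.37, 1.99 and 2.18 CPM against 0.403, 0.184 and 0.450 CPM (2.63, SE 0.26, edgeR adjusted p = 3.8e-06). Col6a5 (2.47, at most 0.411 CPM) was lost on leaving out any library but Clrn1-/- replicate 3, with values from 2.14 to 3.09. Mmp2, a gelatinase, had 203, 161 and 155 CPM against 66.8, 71.0 and 72.7 CPM (1.30, SE 0.09, edgeR adjusted p = 1.2e-07), with wild-type at 66.6 ± 6.6 CPM and the double mutants at 95.6 ± 8.3 CPM (SD, n = 3 each). Other matrix proteases were called in both directions, such as Mmp23 (-0.90) and Adamts4 (-0.65, lost without Clrn1-/- replicate 1 at -0.55 or Clrn2-/- replicate 2 at -0.54).

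Of 19 bone and cartilage genes, 3 were called higher and 1 lower. Acan, the cartilage proteoglycan aggrecan, had 157, 158 and 152 CPM in Clrn1-/- and 75.1, 94.8 and 92.3 CPM in Clrn2-/- (0.83, SE 0.07, edgeR adjusted p = 1.4e-06). Dmp1, made by osteocytes, had 131, 118 and 103 CPM against 57.0, 75.8 and 68.3 CPM (0.81, SE 0.11, edgeR adjusted p = 8.7e-05). Comp, a cartilage matrix gene, went the other way (-1.60). The whole bone and cartilage list summed to 2828 to 3099 CPM in Clrn1-/- and 2675 to 2727 CPM in Clrn2-/-. Fibroblast genes summed to 7198 to 7816 against 7151 to 7592 CPM, and the part of bone left in the dissection in these values was not tested. Of 18 fibroblast genes, 1 was called higher and 1 lower, and 5 and 3 passed the adjusted p alone. Postn, periostin, was the higher, with 14.5, 12.99 and 12.8 CPM against 7.24, 7.04 and 6.29 CPM (0.97, SE 0.08, edgeR adjusted p = 8.5e-07). Fn1, fibronectin, was the lower (-0.64), and was lost without Clrn1-/- replicate 1 (-0.63) or Clrn2-/- replicate 2 (-0.56) or 3 (-0.60).

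Of 57 Wnt pathway genes, 3 were called in each direction (10.5%, against 4.73% of all tested genes), most of them secreted regulators. Wif1, which binds Wnt ligands, had 16.9, 15.4 and 15.1 CPM in Clrn1-/- and 6.67, 6.83 and 7.14 CPM in Clrn2-/- (1.20, SE 0.13, edgeR adjusted p = 1.1e-05), and Sfrp2 and Sfrp5 had log2 fold changes of 1.29 and 0.67. Sfrp4, of the same family of decoy receptors, had 41.1, 39.1 and 32.5 CPM against 67.0, 100.3 and 85.2 CPM (-1.16, SE 0.21, edgeR adjusted p = 0.0012), and Dkk2, an inhibitor of the Wnt co-receptor, had a log2 fold change of -0.76. Gdf10, a BMP family ligand, was the called gene of 56 in the TGF-beta and BMP list (-0.97, SE 0.20, edgeR adjusted p = 0.0038). None of 26 Notch pathway genes, 25 clock genes or 25 cholesterol synthesis genes was called, with 1, 1 and 5 passing the adjusted p alone.

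A few genes of pigment, muscle and transport stood out within lists that held calls in both directions. Pmel, a structural protein of melanosomes, had 31.3, 27.1 and 25.7 CPM in Clrn1-/- and 3.201, 2.602 and 2.98 CPM in Clrn2-/- (3.25, SE 0.18, edgeR adjusted p = 6.6e-09). The melanocyte list as a whole summed to 462 to 508 CPM against 416 to 480 CPM, and its other called genes, Trpm1 (-2.27) and Gpnmb (-1.19), were lower. Trpm1 was lost without Clrn1-/- replicate 2 (-2.16) or Clrn2-/- replicate 1 (-1.91), and Gpnmb was lost on leaving out any library except Clrn2-/- replicate 3, with values from -1.34 to -0.93. Myl1, a myosin light chain of fast muscle, had 42.7, 39.6 and 36.6 CPM against 7.72, 6.55 and 6.21 CPM (2.54, SE 0.10, edgeR adjusted p = 1.6e-10), while the 33 muscle genes had a median of -0.12. Slc25a48, a mitochondrial carrier, had 7.88, 9.42 and 7.19 CPM against 0.780, 0.765 and 0.590 CPM (3.51, SE 0.26, edgeR adjusted p = 1.4e-07). Slc15a2, a peptide transporter, had 20.6, 22.6 and 23.2 CPM against 9.71, 9.52 and 9.92 CPM (1.19, SE 0.11, edgeR adjusted p = 2.1e-06), and the double mutants, at 23.1 ± 4.0 CPM (SD, n = 3), were with Clrn1-/-. Crym, a thyroid hormone-binding deafness gene, had 16.5, 15.9 and 16.2 CPM against 11.4, 10.6 and 9.92 CPM (0.60, SE 0.08, edgeR adjusted p = 7.8e-05), and was at 0.55 without Clrn2-/- replicate 3.

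Calls were unevenly spread over the genome (GRCm38). The share of tested genes called was 8.62% on chromosome 4, 8.38% on chromosome 13, 8.02% on chromosome 1 and 7.52% on chromosome 3, and 1.51% on chromosome 15. In 10-Mb bins with at least 20 tested genes, 25 of 249 bins had at least 10% called and held 240 called genes, while 28 bins had none. The densest were chr6:130000001-140000000, with 11 of 49 genes called, and chr4:140000001-150000000, with 27 of 126. The bin on chromosome 6 holds Plbd1, and that on chromosome 4 holds Zfp990 and other members of a zinc finger gene cluster, in which Zfp985 (a ratio of 30.5, with a counting interval of 8.11 to 258) was higher and Zfp988 (-2.49) and Zfp982 (-2.48) were lower. Zfp988 was lost without Clrn1-/- replicate 2 (-2.20, edgeR adjusted p = 0.057). Over all 365 Zfp genes tested, 7 were called higher and 8 lower (median 0.00025).

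Around the mutated genes, 11 of 112 genes within 10 Mb of Clrn1 were called (9.82%), 8 higher and 3 lower in Clrn1-/-. They included Mindy4b-ps, the nearest called neighbor, at 17.4, 21.2 and 20.03 CPM against 10.7, 11.8 and 10.9 CPM (0.82, SE 0.09, edgeR adjusted p = 2.1e-05). Mme, a neutral endopeptidase gene 4.45 Mb away, had 255, 211 and 207 CPM against 140.0, 144 and 143 CPM (0.65, SE 0.08, edgeR adjusted p = 4.2e-05). Within 10 Mb of Clrn2, 8 of 106 genes were called (7.55%), and within 2 Mb 5 of 25 (20%), among them Gm7879 (2.93), Gm43200 (2.48), Bst1 (1.77) and C1qtnf7 (-0.89). Bst1 was lost without Clrn1-/- replicate 2 (1.75) or 3 (1.43) or Clrn2-/- replicate 2 (1.62) or 3 (1.56), and C1qtnf7 without any library but Clrn2-/- replicate 1, with values from -0.94 to -0.73. Of the 10-Mb bins with at least 10% called, that of Clrn2 itself, chr5:40000001-50000000, had 5 of 40 called (12.5%), and chr3:60000001-70000000, next to Clrn1, had 6 of 53 (11.3%). Strain origin of these regions was not given in the sources used here, and its part in the calls was not tested.

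**Figure D5:**
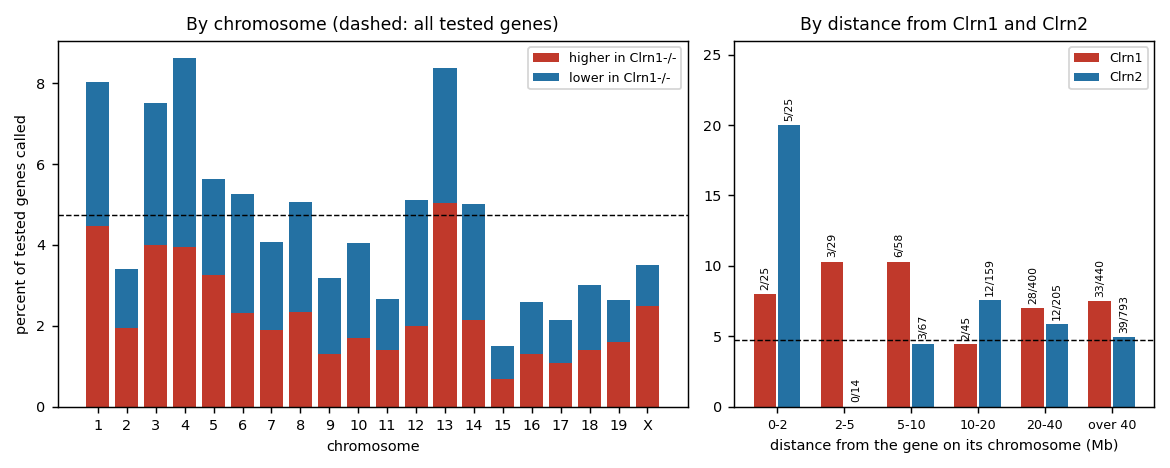
Percent of tested genes called by chromosome (left, stacked by direction) and by distance from Clrn1 and from Clrn2 in Mb (right, with the number called of the number tested), with the 4.73% of all tested genes dashed. The Y chromosome, with 8 tested genes, is not drawn. Of the chromosomes drawn, 4, 13, 1 and 3 have the highest shares, and 5 of 25 genes within 2 Mb of Clrn2 were called.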

How the data were processed

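Organs of Corti of mice at P21 were sequenced in 4 genotypes with 3 libraries each. The deposited values were whole read counts per gene, which the authors made with STAR on GRCm38.p6 with the Gencode M24 annotation, without normalization or pooling of libraries (the version of STAR is not given in the sources used here). The counts in the orientation of the strand-specific kit were used, without the 4 totals of unassigned reads (13.5% to 15.8% of a library). Genes were kept by filterByExpr (minimum count 10), libraries were scaled by TMM, and all 12 were fitted by genotype with the quasi-likelihood test of edgeR 4.0.16 in R 4.3.3, with Benjamini-Hochberg adjustment. The contrast, thresholds and filter were checked on simulated data. Positions came from Gencode M21 of the same build, in which 53238 of 55348 symbols matched 1 gene. Intervals of ratios with few counts were exact 95% intervals and cover counting error only.

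The comparison and the 60 gene lists were chosen with earlier results of these data known. Named were the clarin genes, the 12 largest called differences per direction with libraries that did not overlap and at least 1 CPM, and up to 3 called members per list, window and direction. Genes named without a call, and called members of a list or window named beyond 3 per direction, were chosen after their values were seen. So were Plbd1, Lrrc52, Ndufs5-ps, Amtn, A830018L16Rik, Cxcl14, Gm13736, Gm4316 and Gm6166. A called gene that the rule names is not reported here. Alternatives were limma-voom 3.58.1, DESeq2 1.42.0, other scalings, no filter, no fold minimum, the 2 genotypes alone, unstranded counts, the replicate number as a block, and leaving out each library.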

Additional observations from a re-analysis of the deposited data

How the results depend on the processing

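With 15 alternative settings, the 457 higher and 445 lower genes stayed within 1.5 times of those counts except without a fold minimum, which gave 1811 and 1712. There, 1896 called genes also differed from wild-type in Clrn1-/- alone, 515 in Clrn2-/- alone, 309 in both and 803 in neither, and the double mutants were nearer to Clrn1-/- for 40.4%. Leaving out each library in turn gave 379 to 461 higher and 361 to 468 lower genes, 26 to 38 differing from wild-type in both mutants, and 32.09% to 39.54% of called genes with the double mutants nearer to Clrn1-/-. limma-voom called 888 genes, DESeq2 796 and the fit of the 2 genotypes alone 894. Of 1800 counts over the gene lists and settings, 1562 were within 1.5 times of the reported count, so the small counts of single lists are less firm. Of the 141 genes that the rule named, 95 kept their call in every setting and 45 lost it in at least 1. Genes named outside the rule were not followed through the settings. Mb, a muscle gene that was lower at -1.32, reversed to 0.068 with unstranded counts, and the cause was not tested. Libraries that share a replicate number did not deviate together (correlations of 0.0292 to 0.0899 over 12453 genes), so the numbers do not pair the libraries, and the fit with the number as a replicate block called 892 genes (456 higher and 436 lower). The other scalings moved the median of all genes by at most 0.01. With 3 libraries per genotype and 244 called genes under 1 CPM in both, calls at low levels rest on few counts.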
